A study of Mus musculus with 36 samples.

Results

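The genes of 9 liver plasma proteins were followed through the sorted stromal cells of the mouse thymus: Crp, Saa1, Saa2, Apoa1, Apoa2, Apob, Fgb, Alb and Ttr. They were chosen by name, with earlier results of these data known. Each was represented by the probe set whose platform annotation gave its symbol alone and whose mean over all 36 arrays was highest. They were 9 of 18193 genes with such a probe set. Of the 9, 8 were tested among 14495 genes whose signal lay above the median of all values (5.66 on the log2 scale) in at least 2 arrays, and Apob, above it in 1 array, was not. All animals were male wild-type C57BL/6J mice, aged 1, 3 or 6 months, with no other genotype or treatment named. From digested thymi, 6 populations were purified by fluorescence-activated cell sorting: epithelial cells of the cortex (cTEC), epithelial cells of the medulla in a low and a high class (mTEClo and mTEChi), Sirpa- and Sirpa+ dendritic cells (DC), and fibroblasts. The labels give mTEClo as CD80 lo and MHC-II lo, and mTEChi as CD80 hi and MHC-II hi. Each population had 2 arrays at each age, so 18 groups of 2 and 6 arrays per population. The labels speak of 1 mouse behind each sample and the design text of a pair of mice at each age, so arrays of different populations may come from the same animals, and the p-values then measure the spread between these samples only.

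Hepatocytes secrete most proteins of blood plasma, among them the carriers albumin and transthyretin, the fibrinogen chains, the apolipoproteins, and the acute-phase proteins that rise in inflammation. The medulla of the thymus also transcribes many genes of other organs, liver included, and shows their products to developing T cells, so that cells reactive to them are deleted or turned into regulatory T cells. Aire, a chromatin-binding regulator active in mature mTEC, and the zinc finger factor Fezf2 are each needed for the expression of part of these tissue antigens. Among the genes followed here, Crp and the Saa genes encode acute-phase proteins, Apoa1 and Apoa2 the main proteins of high-density lipoprotein, Apob the scaffold of the larger lipoproteins, Fgb the fibrinogen beta chain, Alb albumin, and Ttr transthyretin, the carrier of thyroxine and retinol-binding protein.

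The labelled populations were set against their markers. Of 6 cTEC markers, 5 were at least 2-fold higher in cTEC than in the other 5 populations. General mTEC markers separated the epithelial populations less: of 4, 4 were higher in mTEChi, 2 in mTEClo and 2 in cTEC. Only 1 was lower in cTEC than in the mean of both medullary populations. Between mTEChi and mTEClo, 2 were higher and 2 lower in mTEChi. All 3 markers of mature mTEC, Aire, Fezf2 and Cd80, were higher in mTEChi, by 4.75, 5.48 and 2.21 on the log2 scale. The labels define the 2 medullary classes by CD80, so Cd80 is no independent check of them. Their mean over the 3 genes ran from 10.13 to 11.47 in mTEChi arrays and from 7.06 to 8.85 in mTEClo arrays. Dendritic cell markers averaged 8.6 to 9.48 in the DC arrays and at most 6.22 elsewhere, and fibroblast markers 9.26 to 12.91 in fibroblasts and at most 7.65 elsewhere. Thymocyte markers averaged 8.56 to 10.89 in fibroblast arrays and 6.28 to 8.52 in cTEC arrays, against 5.37 to 7.03 in mTEClo and 5.62 to 6.37 in mTEChi. The closest array to every 1 of the 36 belonged to its own population, and array medians ran from 5.61 to 5.75.

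The members lie on different chromosomes, apart from Crp with Apoa2 on chromosome 1 and Saa1 with Saa2 on chromosome 7 (RefSeq, GRCm38.p6). Their proximal promoters are shown first, because the same genes are described below as rising and falling together or apart. The 250 bases before the start were taken from RefSeq's table for 8 of the 9 members, with 2 entries for Apoa2. Ttr was left out of the promoter search, so the counts of matches below do not cover it. The 4 printed are those of Crp, whose order of populations differed from the rest, of Saa2, which also stands for its near copy Saa1, and of Fgb and Alb, whose signal passed the pooled median in mTEChi arrays alone. The window of Saa1, chr7:46742981-46743230 (-), lies largely inside the annotated span of that gene and is not printed. Capitals mark matches on either strand to the letters of a core promoter box (TATAAA), of C/EBP (TTGCNNAA), of NF-kB (GGG, any 5 bases, then CC), of an HNF1 half-site (GTTAAT) or of HNF4 (CAAAGTCCA). The matches that overlapped, in Crp, Apoa2 and Apob, were all to the NF-kB letters. The positions are chr1:172697806-172698055 (+) for Crp, chr7:46751583-46751832 (+) for Saa2, chr3:83049864-83050113 (-) for Fgb and chr5:90460620-90460869 (+) for Alb, each printed 5′ to 3′ and ending at the base before the start.
Crp: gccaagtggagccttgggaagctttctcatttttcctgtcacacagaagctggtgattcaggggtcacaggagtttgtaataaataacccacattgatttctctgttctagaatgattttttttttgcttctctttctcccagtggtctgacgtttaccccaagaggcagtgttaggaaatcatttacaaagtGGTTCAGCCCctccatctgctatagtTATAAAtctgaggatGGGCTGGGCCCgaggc
Saa2: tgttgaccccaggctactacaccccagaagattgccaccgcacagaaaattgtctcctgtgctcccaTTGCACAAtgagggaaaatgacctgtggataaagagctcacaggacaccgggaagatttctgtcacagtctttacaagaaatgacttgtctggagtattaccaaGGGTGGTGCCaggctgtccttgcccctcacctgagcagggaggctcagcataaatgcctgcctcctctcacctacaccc
Fgb: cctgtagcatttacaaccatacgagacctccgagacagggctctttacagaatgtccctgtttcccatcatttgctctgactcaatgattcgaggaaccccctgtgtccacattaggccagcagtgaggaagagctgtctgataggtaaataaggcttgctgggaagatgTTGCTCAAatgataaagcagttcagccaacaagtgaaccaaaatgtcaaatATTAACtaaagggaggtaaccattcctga
Alb: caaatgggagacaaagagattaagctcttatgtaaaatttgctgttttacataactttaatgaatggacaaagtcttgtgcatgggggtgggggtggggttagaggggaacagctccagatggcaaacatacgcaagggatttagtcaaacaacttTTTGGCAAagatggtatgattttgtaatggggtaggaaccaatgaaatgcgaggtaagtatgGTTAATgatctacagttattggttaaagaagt

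The Saa1 and Saa2 promoters, which face away from each other in the genome, shared 238 identical bases in 251 aligned columns (94.8%), and the next most alike pair among the 8 genes, Fgb and Saa1, shared 49.1%. Both Saa promoters held the C/EBP letters TTGCACAA, ending 175 bases before the start in Saa1 and 176 in Saa2, and the NF-kB letters GGGTGGTGCC nearer the start. Crp held a TATA box 31 to 26 bases before its start and matches to the NF-kB letters, and no match to the C/EBP letters. Fgb and Alb each held a C/EBP match and an HNF1 half-site, the latter 29 to 24 and 32 to 27 bases before the start. Over the 8 genes, C/EBP letters were found in 6 (9.56% of 32851 RefSeq promoters of this length), NF-kB letters in 6 (45.8%), TATAAA in 3 (12.4%), the HNF1 half-site in 2 (6.43%) and the HNF4 letters in 0 (0.384%). A match here describes letters in a window and not binding, and a missing match says nothing of the factor.

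The first comparison asked which population held these transcripts. In mTEChi, each of the 8 tested genes was at least 2-fold higher than in the mean of the other 5 populations (13.9% of all genes tested were), and for 7 of them every mTEChi array lay above every array of the other populations. Crp was the exception and was higher still in mTEClo. On the probe sets used, the size of the mTEChi difference ran from 2.28-fold for Saa2 to 78.8-fold for Saa1. In a bulk sort, fewer cells carrying a transcript and less of it in each cell cannot be told apart.

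Among the acute-phase genes, Saa1, a serum amyloid A apolipoprotein of high-density lipoprotein, had a log2 signal of 11.15 at the lowest, 11.53 at the median and 11.85 at the highest of 6 mTEChi arrays. Its other arrays reached at most 8.67, in mTEClo at 1 month, so the groups did not overlap. The mTEChi level was 11.56 ± 0.26 (SD, n = 6), and the difference from the other 5 populations was 6.3 ± 0.18 (SE, limma adjusted p = 8.99e-20). For Saa2, its close paralogue, mTEChi arrays ran from 5.62 through a median of 5.76 to 5.86, and all other arrays lay at 5.11 or below. The Saa2 difference was 1.19 ± 0.09 (SE, adjusted p = 5.96e-12), and its probe set stood above the pooled median in 5 arrays, all of mTEChi. The Saa1 probe set used carries the symbol Saa1 while its listed accession belongs to Saa2 in RefSeq, and its name and that of the Saa2 probe set carry the maker's suffixes for probes shared between transcripts, so signal of the 2 genes cannot be told apart here. A second Saa1 probe set, whose accession is that of Saa1 itself, gave a smaller mTEChi difference, 4.78 ± 0.25 (SE, adjusted p = 8.7e-15 over 25600 probe sets).

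Crp, the pentraxin C-reactive protein, followed another order. Its 6 mTEClo arrays ran from 9.68 through 10.34 to 11.27 and its mTEChi arrays from 7.38 through 8.92 to 9.35, so that every mTEClo array lay above every mTEChi array. In cTEC it ran from 4.41 through 4.89 to 6.42, in both DC populations it stayed at or below 4.67, and in fibroblasts it reached 5.08. Both medullary populations were thus clear of all others, with mTEClo highest. Crp was 3.06 ± 0.17 (SE) higher in mTEChi than in the other 5 populations (limma adjusted p = 2.9e-14), a mean that includes mTEClo, and 1.71 ± 0.22 lower in mTEChi than in mTEClo (3.28-fold, adjusted p = 2.82e-07).

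**Figure D1:**
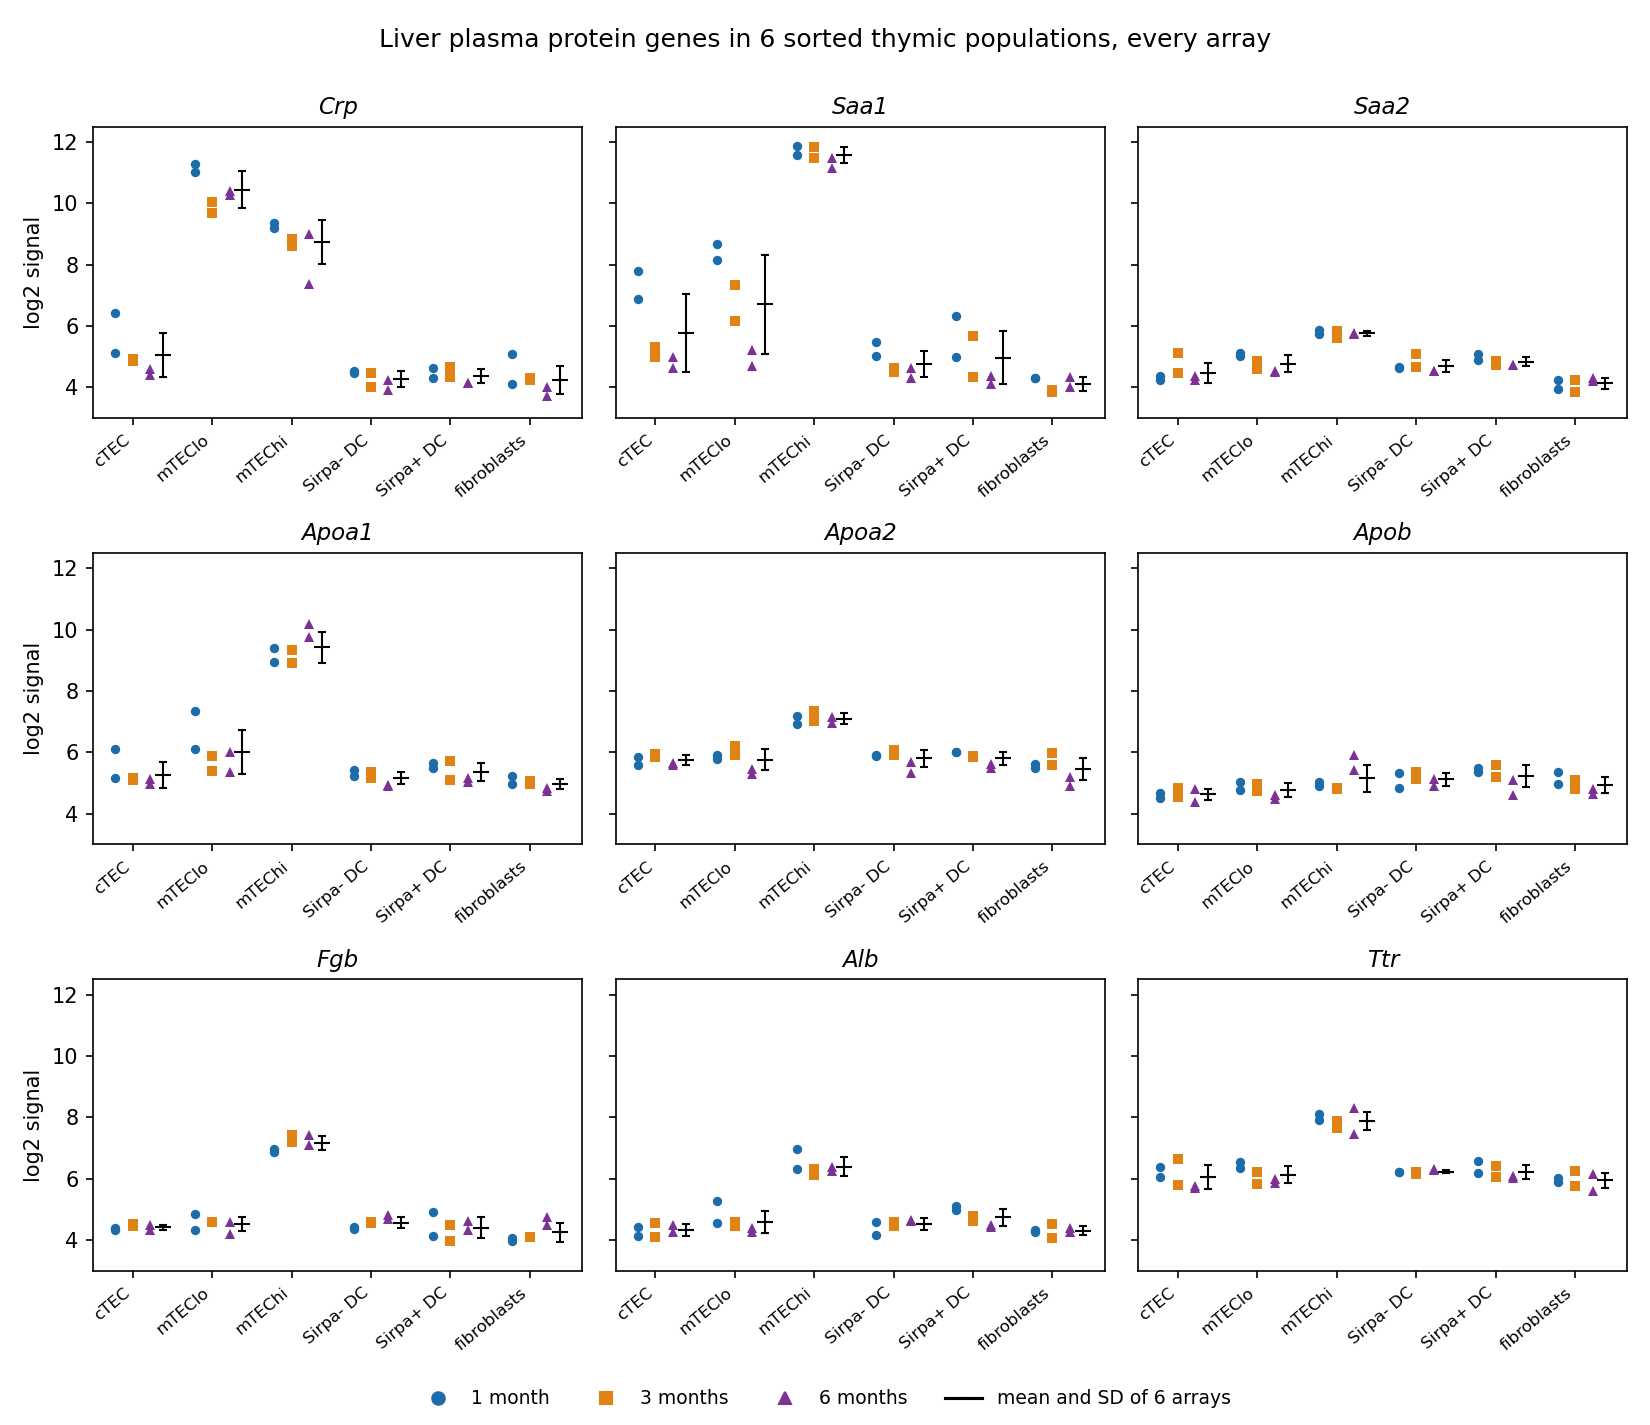
Log2 signal of each of the 9 genes (vertical axis) in 6 sorted populations (horizontal axis), one point per array, with the colour and shape giving the age and the bar the mean and SD of 6 arrays. Crp is highest in mTEClo (9.68 to 11.27), Apob shows no population apart, and the other 7 genes have every mTEChi array above all other arrays.

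Of the lipoprotein genes, Apoa1 ran from 8.9 through 9.36 to 10.17 in mTEChi, and its other arrays reached at most 7.35, in mTEClo at 1 month. The mTEChi arrays did not overlap any others, and the difference was 4.06 ± 0.14 (SE, 16.7-fold, adjusted p = 4.12e-18). Apoa2 ran from 6.91 through 7.09 to 7.36 in mTEChi against at most 6.21 elsewhere, again without overlap, and differed by 1.39 ± 0.08 (adjusted p = 9.58e-14). Apob, with the probe set that the rule selects, read 4.8 at the lowest, 4.97 at the median and 5.92 at the highest in mTEChi, inside the range of the Sirpa+ DC arrays (4.6 to 5.59) for 5 of its 6 arrays. Fitted without the filter on low signal, Apob differed by 0.22 ± 0.1 (SE, adjusted p = 0.0566). A second Apob probe set, whose correlation with the first over the arrays was 0.284, averaged 5.82 ± 0.38 (SD, n = 6) in mTEChi and 3.93 to 4.19 in the other populations, a difference of 1.71 ± 0.11 (SE, adjusted p = 8.99e-13 over 25600 probe sets).

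The coagulation and carrier genes were highest in mTEChi. Fgb ran from 6.86 through 7.15 to 7.43 there, and no other array exceeded 4.91, a gap of 1.95 between the groups. The Fgb difference was 2.73 ± 0.1 (SE, 6.64-fold, limma adjusted p = 7.85e-18). Alb ran from 6.12 through 6.32 to 6.98 in mTEChi with 5.26 the highest elsewhere, and Ttr from 7.46 through 7.9 to 8.3 with 6.65 the highest elsewhere. Neither gene's mTEChi arrays overlapped the others. Alb differed by 1.9 ± 0.1 (3.74-fold, adjusted p = 1.82e-14) and Ttr by 1.77 ± 0.12 (3.41-fold, adjusted p = 1.42e-12). The Ttr value depended on the probe set: 3 further ones gave mTEChi means of 10.1, 9.2 and 9.75 and differences of 5.46, 5.58 and 5.37, against 1.77 for the one with the highest mean. The names of these 3, and that of the Apoa1 probe set used, carry the maker's suffixes for probes shared between transcripts. Signal of other transcripts may therefore enter their values.

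Not all of these counts were free to fall otherwise. Saa2, Fgb and Alb passed the signal filter only through mTEChi arrays (5, 6 and 6 arrays above the median), so they had to be higher there, and without the filter 8 of all 9 genes were called, where 11.7% of 18193 genes were higher in mTEChi. With the filter, 13.9% of 14495 genes were higher, and the median difference of the 8 genes was 2.32 against -0.07 over all genes tested. An mTEChi array set wholly above all others, seen in 7 genes, was seen in 6.8% of all genes tested. The genes were chosen with earlier results of these data known, so the shares beside their counts are a description and no test. Markers of other cells were not level between the medullary populations. Macrophage markers averaged 6.6 to 7.09 in mTEChi arrays and 5.3 to 5.84 in mTEClo arrays, with 5 of 7 higher in mTEChi than in mTEClo. In Sirpa+ DC arrays they averaged 9.74 to 10.65. The B-cell markers (2 genes) averaged 6.06 to 6.78 in mTEChi and 4.76 to 5.42 in mTEClo, and the erythroid markers (2 genes) 5.19 to 6.13 and 4.36 to 5.04. Their part in the result was not tested.

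In mTEClo, Crp was the 1 gene of 8 called higher than in the other 5 populations, by 5.12 ± 0.17 (limma adjusted p = 3.71e-18), where 9.42% of genes tested were higher. Its mTEClo arrays all lay above the highest array elsewhere (9.68 against 9.35), a pattern found in 0.731% of genes tested. The other 7 genes had mTEClo differences from -0.44 (Fgb) to 0.47 (Saa1), none past the 2-fold limit. Each of these comparisons shares its arrays with that of mTEChi, whose level enters the mean of the others.

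**Figure D2:**
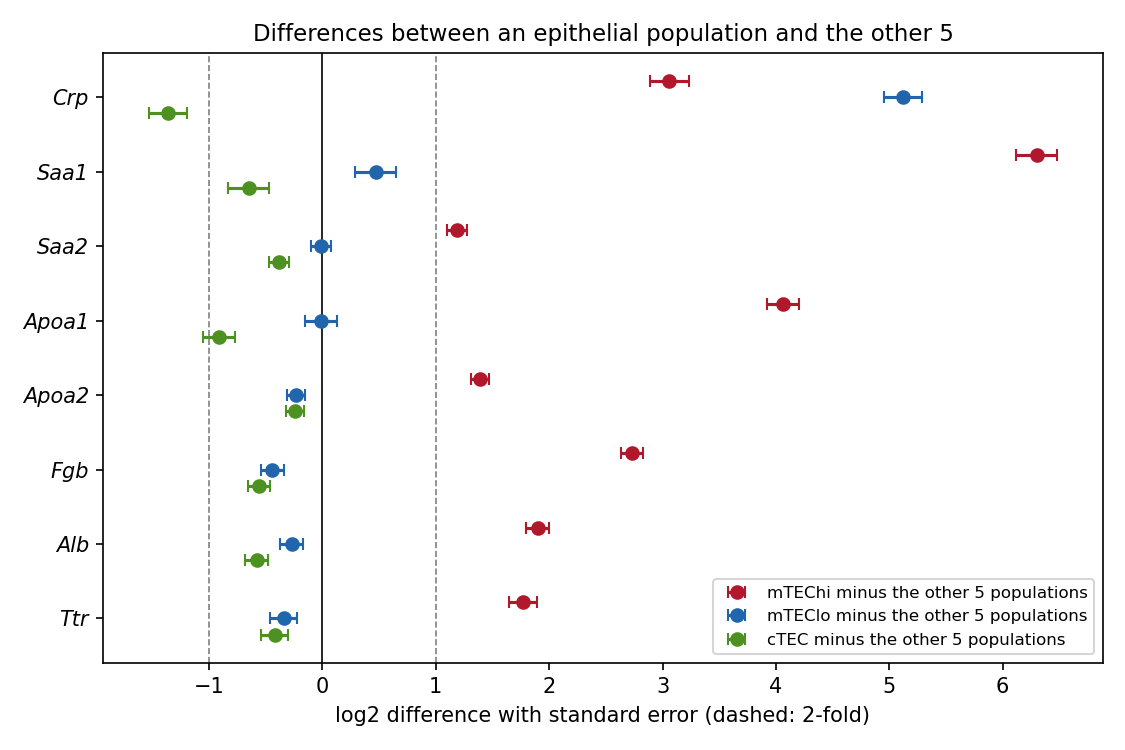
Log2 difference with its standard error (horizontal axis) between each epithelial population and the mean of the other 5, for the 8 genes tested (vertical axis), with dashed lines at 2-fold. Crp has the mTEClo point farthest right (5.12), while all 8 mTEChi points lie right of the 2-fold line.

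Set directly against each other, mTEChi exceeded mTEClo for 6 of the 8 genes (11.8% of genes tested) and mTEClo exceeded mTEChi for Crp (7.81%). The differences were 4.86 for Saa1, 3.4 ± 0.19 for Apoa1, 2.64 ± 0.13 for Fgb, 1.81 for Alb, 1.76 for Ttr and 1.34 for Apoa2. Saa2 differed by 1.00 on the log2 scale, just inside 2-fold, and was not called. Crp was higher in mTEChi than in the other 5 populations and yet lower than in mTEClo, a combination met in 69 genes (0.476% of those tested). cTEC was below the mean of both medullary populations for 5 genes (8.24% of genes tested): Crp by -4.54, Saa1 by -3.36, Apoa1 by -2.45, Fgb by -1.42 and Alb by -1.16. For Ttr (-0.95), Saa2 (-0.81) and Apoa2 (-0.68) the difference from cTEC stayed within 2-fold on the probe sets used. The further Ttr probe sets gave -2.69, -3 and -2.78 here, each called in the fit of single probe sets. Between mTEChi and mTEClo they gave 4.57, 4.77 and 4.52, against 1.76 on the one used. Compared with mTEClo alone, cTEC was 2-fold lower for 1 gene, Crp (5.4 ± 0.22 higher in mTEClo, where 4.34% of genes tested were higher).

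Below the highest population, most neighbours in the order of the means did not differ. Populations farther apart in the order can still differ. Alb averaged 4.73 in Sirpa+ DC and 4.31 in fibroblasts. At an unadjusted p under 0.05, 5 of the 8 genes differed between these 2 populations, where 64.3% of genes tested did. For Fgb, Alb and Ttr, on the probe sets used, no neighbouring pair among the 5 lower populations differed at adjusted p under 0.05. Saa1 fell from mTEClo (mean 6.7) to cTEC (5.77; difference 0.93 ± 0.24, adjusted p = 0.00361, where 29.1% of genes tested differed at this threshold with no limit on the fold), from cTEC to Sirpa+ DC (4.96; 0.8, adjusted p = 0.00454; 65.6% of genes), and from Sirpa- DC (4.76) to fibroblasts (4.11; 0.65, adjusted p = 0.0206; 58.9%), while the DC populations did not differ from each other. Apoa1 was higher in mTEClo (6.02) than in Sirpa+ DC (5.35; 0.66, adjusted p = 0.0034; 59.9%), and no neighbours below these differed. Crp was higher in mTEChi (8.73) than in cTEC (5.05; 3.68, adjusted p = 1.8e-13; 61.2%). It was also higher in cTEC than in Sirpa+ DC (4.37; 0.68, adjusted p = 0.00836; 65.6%). For Saa2 and Apoa2 the lower neighbours that differed were cTEC and fibroblasts, by 0.32 (adjusted p = 0.0155) and 0.29 (adjusted p = 0.0213), where 57% of genes differed. Against the other 5 populations, Crp and Saa1 were at least 2-fold lower in each DC population and in fibroblasts, and Apoa1 in Sirpa- DC and fibroblasts, which makes 3 genes in Sirpa- DC (13% of genes tested lower), 2 in Sirpa+ DC (10.2%) and 3 in fibroblasts (9.98%). In cTEC only Crp was lower by this rule (-1.36, 6.37%). In each of these comparisons the mean of the others includes both medullary populations, where Crp, Saa1 and Apoa1 were highest.

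Over the 18 group means, Crp correlated with the other members at Pearson r from 0.46 (Apoa2) to 0.68 (Saa1), and the other 7 correlated among themselves at 0.87 to 0.98. All of these points share the same arrays, and mTEChi sets most of the range. The 3 genes most like each member by this measure were drawn from all genes tested. Nearest to Crp were the transporter Slc4a11 (r = 0.974), the esterase Aadac (0.966) and the neutrophil antigen Cd177 (0.965). Nearest to Saa1 were its paralogue Saa3 (0.993), Lypd8 of colonic epithelium (0.983) and Ntn5 (0.979). Nearest to Apoa1 were Mucl2 (0.993), the histidine ammonia lyase Hal (0.993) and the calcium-binding Calb1 (0.992), and nearest to Apoa2 were Pla2g12b (0.962), the casein Csn1s1 (0.957) and urate oxidase Uox (0.955). Nearest to Fgb were the urothelial Upk3a (0.991), Sprr2f (0.987) and Lefty2 (0.987), nearest to Alb Bhmt (0.982), Krt4 (0.982) and Mcpt1 (0.981), and nearest to Ttr Madcam1 (0.989), Krt24 (0.988) and Mcpt1 (0.986). Saa2 lay nearest to Utf1 (0.962), Cfap53 (0.955) and Pdyn (0.953).

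The second question was how the levels moved between 1, 3 and 6 months. In mTEChi, limma called 0 of 8 genes in each of the 3 age comparisons, where 0, 9.51 and 7.87% of genes tested were called. At an unadjusted p under 0.05 the counts were 0, 2 and 1 of 8, where 2.66, 25.3 and 23.4% of genes tested passed. In mTEClo and cTEC, Saa1 fell with age. At an unadjusted p under 0.05, 3, 6 and 2 of 8 genes passed in mTEClo (1 to 3, 1 to 6 and 3 to 6 months). There 11.4, 20.3 and 12.9% of genes tested passed. In cTEC the counts were 3, 2 and 1, where 19.8, 19.9 and 18.4% passed. The median change of the 8 genes from 1 to 6 months was -0.57 in mTEClo (-0.09 over all genes tested) and -0.29 in cTEC (-0.07). Over all 6 populations there were 10 calls among the 8 genes in 18 comparisons of 2 arrays against 2, and 5 of them were falls of Saa1. The share of all genes tested that was called in these comparisons ran from 0% (mTEChi, 1 to 3 months) to 36.2% (fibroblasts, 1 to 6 months). Outside fibroblasts it was 9.51% at most.

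In mTEClo, Saa1 read 8.15 and 8.67 at 1 month, 7.33 and 6.16 at 3 months, and 4.68 and 5.2 at 6 months, so no array of one age overlapped another. The fall from 1 to 6 months was -3.47 ± 0.41 (SE, 11.1-fold, limma adjusted p = 7.77e-06), where 3.87% of genes tested were lower. The steps were -1.67 from 1 to 3 months (adjusted p = 0.0317; 1.15% of genes lower) and -1.8 from 3 to 6 months (adjusted p = 0.0155; 0.807%). The call of the first step was lost without replicate 1 (-1.93) or replicate 2 (-1.41) of 1 month or replicate 2 of 3 months (-1.09), and that of the second without replicate 1 of 3 months (-1.22) or replicate 1 (-1.54) or 2 (-2.07) of 6 months. In cTEC it read 6.86 and 7.79 at 1 month, 5 and 5.31 at 3 months, and 4.64 and 5 at 6 months. The 1-month arrays lay above all later ones, and the change was -2.17 ± 0.41 by 3 months (adjusted p = 0.00217; 3.88% of genes lower) and -2.51 ± 0.41 by 6 months (adjusted p = 0.00042; 3.74%). In mTEChi the readings were 11.85 and 11.57, 11.48 and 11.84, then 11.15 and 11.47, a change of -0.4 ± 0.41 by 6 months (95% interval -1.24 to 0.44, adjusted p = 0.587).

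The change from 1 to 6 months was therefore tested between the medullary populations. For Saa1 it was 3.07 ± 0.58 (SE) higher in mTEChi than in mTEClo (adjusted p = 0.00297), and for Apoa1 1.85 ± 0.46 (adjusted p = 0.017), where 4.97% of genes tested differed in this direction. Apoa1 read 6.1 and 7.35 in mTEClo at 1 month and 5.36 and 6 at 6 months (-1.04, adjusted p = 0.0526), and 8.93 and 9.39 then 9.77 and 10.17 in mTEChi (0.81, adjusted p = 0.111). Neither change of Apoa1 passed alone in the fit over genes. In the fit of single probe sets the mTEClo fall was called on 3 of 4 (-1.04, -1.22 and -1.22, adjusted p = 0.0406, 0.0445 and 0.0401), the one used among them, and not on the fourth (-1.09, 0.195). The call of the difference between the populations was lost without mTEClo replicate 2 of 1 month, whose value of 7.35 stands apart (1.23), without mTEClo replicate 1 of 6 months (1.53), without mTEChi replicate 1 of 1 month (1.62) and without mTEChi replicate 2 of 6 months (1.66). For the other 6 genes the difference ran from -0.27 (Crp, 95% interval -1.37 to 0.83) to 0.52 (Saa2 and Fgb) and did not pass. An F-test over all populations and ages called Saa1 (F = 5.7, adjusted p = 0.00529; 15.7% of genes tested) and not Apoa1 (F = 2.4, adjusted p = 0.127).

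**Figure D3:**
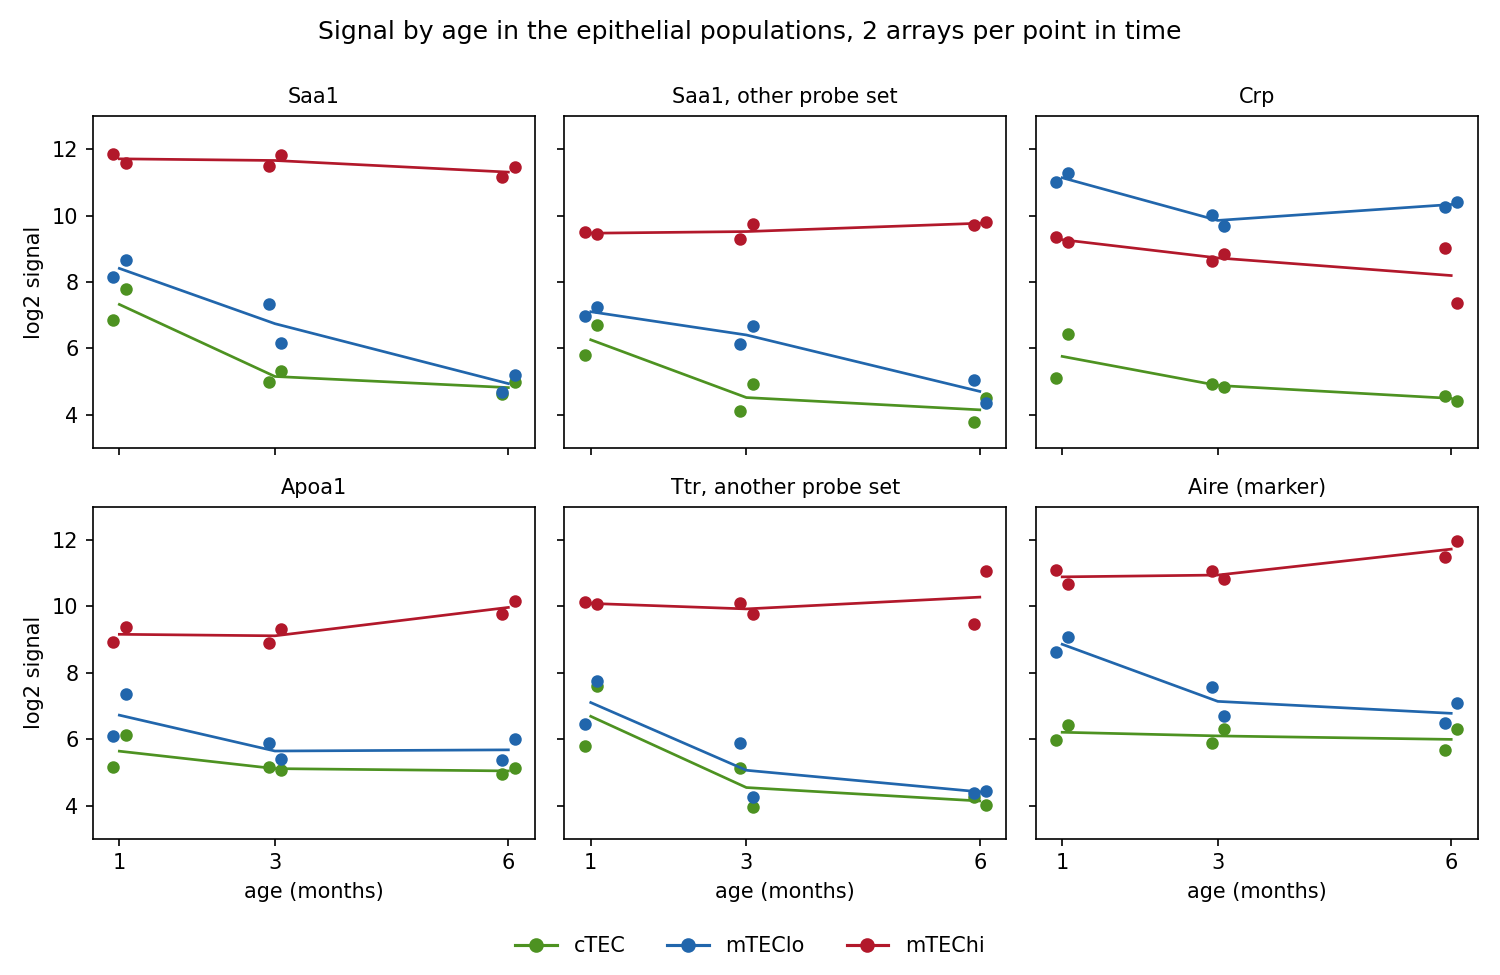
Log2 signal (vertical axis) against age in months (horizontal axis) in the 3 epithelial populations, with each array as a point and lines through the means of 2 arrays. Saa1 in mTEClo drops from 8.15 and 8.67 to 4.68 and 5.2 and meets the cTEC values at 6 months, while mTEChi stays above 11; Aire in mTEClo drops from 8.64 and 9.08 to 6.48 and 7.08.

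The second Saa1 probe set read 6.97 and 7.24 in mTEClo at 1 month and 5.04 and 4.37 at 6 months. Its change was -2.4 ± 0.56 (adjusted p = 0.00639 over 25600 probe sets), its change in cTEC -2.11 ± 0.56 (adjusted p = 0.0172), and the difference between mTEChi and mTEClo 2.7 ± 0.79 (adjusted p = 0.0456). Both Saa1 probe sets thus fell in mTEClo and cTEC, and they correlated at 0.965 over the arrays. The 3 further Ttr probe sets, unlike the one used, also fell in mTEClo from 1 to 6 months, by -2.69 (adjusted p = 0.00102), -2.29 (0.00848) and -2.04 (0.00676), and in cTEC (adjusted p = 0.00211, 0.0437 and 0.00897). On the first of these, Ttr read 6.45 and 7.76 in mTEClo at 1 month and 4.39 and 4.44 at 6 months, without overlap. All 3 carry the maker's suffixes for probes shared between transcripts. The difference between mTEChi and mTEClo was 2.88 (adjusted p = 0.0205), 2.62 (0.0492) and 2 (0.0832) on the 3, against 0.39 (0.596) on the one used. For Apoa1 the 4 probe sets gave 2.17 (0.0191), 1.85 (0.0174), 1.83 (0.129) and 2.18 (0.0169) in the same fit.

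Several measures of the sorted cells moved in the same arrays. Aire in mTEClo read 8.64 and 9.08 at 1 month, 7.57 and 6.71 at 3 months and 6.48 and 7.08 at 6 months (change by 6 months -2.08 ± 0.27, limma adjusted p = 2.23e-05), but in cTEC it changed by -0.21 (adjusted p = 0.745). The mean of the 3 mature mTEC markers in mTEClo was 8.66, 7.32 and 7.7 at the 3 ages, in mTEChi 10.22, 10.18 and 11.16, and in cTEC 6.04, 6.08 and 6.33. The mean of 10 thymocyte markers was 8.28, 6.79 and 7.8 in cTEC and 6.39, 5.37 and 5.75 in mTEClo, and Cd3g alone of the 10 was called lower at 6 months in mTEClo (-1.87). In cTEC, 4 of these 10 were lower at 3 months than at 1 month (median -1.78). Of 6 cTEC markers, 4 were lower in cTEC at 3 months than at 1 month (median -1.19) and 1 at 6 months (median -0.66). The difference in signal between 3′ and 5′ probes of control transcripts, a measure of RNA length, was 2.63 and 2.43 in cTEC at 1 month and 1.96 and 2.04 at 6 months, and 2.73 and 2.62 then 1.84 and 1.98 in mTEClo. With the thymocyte mean or the 3′ to 5′ difference as a covariate, the falls of Saa1 from 1 to 6 months in mTEClo and cTEC stayed called. Over all alternatives, those without 1 array included, the mTEClo value ran from -3.73 to -2.86 and the cTEC value from -2.97 to -2.04. The slope of a covariate came from differences between the 2 arrays of a group, and its part in the change between ages was not tested. The part of Aire, of the mature mTEC markers and of the cTEC markers in these falls was not tested.

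Of the other age calls, Crp in cTEC read 5.1 and 6.42 at 1 month and 4.58 and 4.41 at 6 months (-1.26 ± 0.38, adjusted p = 0.0441); without the array at 6.42 the change was -0.61, and the call was also lost without replicate 1 (-1.35) or 2 (-1.18) of 6 months, and it was lost without 23 of the 36 arrays in all. In mTEClo, Crp read 11.01 and 11.27, 10.03 and 9.68, then 10.27 and 10.4, and no step passed (1 to 3 months -1.29, adjusted p = 0.0861). Apoa2 was lower at 6 than at 3 months in mTEClo (-0.69, adjusted p = 0.0408) and in fibroblasts (-0.72, adjusted p = 0.00807; 9.24% of genes lower) and lower at 6 than at 1 month in fibroblasts (-0.51, adjusted p = 0.0307; 20.4%). Fgb was higher at 6 months than at 1 in fibroblasts (0.61, adjusted p = 0.0357; 15.8% of genes higher), where it read 3.95 and 4.07 then 4.48 and 4.75, all below the pooled median. In the same fibroblast arrays the mean of 7 fibroblast markers was 12.82, 11.74 and 10.49 at 1, 3 and 6 months, and that of the 10 thymocyte markers 9.35, 10.28 and 10.73. Fitted beside that thymocyte mean, the changes from 1 to 6 months were 0.3 for Fgb (adjusted p = 0.485) and -0.47 for Apoa2 (adjusted p = 0.171) and were not called. Leaving out fibroblast replicate 2 of 6 months ended each of these 3 fibroblast calls (-0.59, -0.38 and 0.48). Those of Apoa2 also ended without fibroblast replicate 2 of 3 months (-0.52 from 3 to 6 months) or replicate 1 of 1 month (-0.44 from 1 to 6 months), and that of Fgb without replicate 1 (0.55) or 2 (0.67) of 1 month. The mTEClo call of Apoa2 ended without replicate 1 of 3 months (-0.54), without replicate 1 (-0.78) or 2 (-0.6) of 6 months, and without any of 4 DC arrays (-0.69). In the DC populations 0 of 8 genes passed in any of the 6 age comparisons by limma, against 0 to 3 at an unadjusted p under 0.05, and the shares of all genes called were 0.0345, 0.904 and 0.29% in Sirpa- DC (1 to 3, 1 to 6 and 3 to 6 months) and 0.331, 2.06 and 1.23% in Sirpa+ DC.

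Other plasma proteins of the liver were read from lists, which were also chosen with earlier results of these data known. Of 78 further plasma protein genes, 67 had a probe set, 53 were tested, and in mTEChi 27 were higher and 1 lower than in the other 5 populations (13.9 and 5.31% of all genes tested), with a median difference of 1.06 against -0.07. Without the filter, 29 of 67 were higher and 1 lower, and the median was 0.74 against -0.05. The members therefore stood among many, though not all, plasma protein genes that were higher in mTEChi.

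Acute-phase proteins were higher for 11 of 16 (median 2.26; 11 of 18 without the filter). They included Saa3, the serum amyloid A made mainly outside the liver (5.66 ± 0.22, SE), the mannose-binding lectin Mbl2 (3.98 ± 0.1), the orosomucoid Orm1 (3.16), the inter-alpha-trypsin inhibitor chains Itih4 (2.88) and Itih3 (2.48), and the iron-regulating peptide Hamp (2.46). Of 15 apolipoproteins and lipoprotein enzymes, 4 were higher and 1 lower (median 0.15; 4 and 1 of 16 without the filter). Apoa4, which shares a gene cluster with Apoa1, was higher by 4.71 ± 0.25, Apoc3 by 3.31, Apoc2, the activator of lipoprotein lipase, by 3.15, and Mttp, which loads lipid onto apolipoprotein B, by 1.70, while Apoe, also made by macrophages, was lower (-2.08 ± 0.36). Of 10 coagulation proteins, 4 were higher (median 0.51; 6 of 19 without the filter): the fibrinogen gamma chain Fgg (4.45 ± 0.12), antithrombin Serpinc1 (3.74), factor X F10 (1.53) and prothrombin F2 (1.47). Of 12 carriers and inhibitors, 8 were higher (median 1.67; 8 of 14 without the filter), led by thyroxine-binding globulin Serpina7 (5.15 ± 0.25), Igfbp1 (3.55), Ambp (2.57), the albumin relative Afm (1.94), Igfals (1.88) and retinol-binding protein Rbp4 (1.68), which travels with transthyretin.

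Liver genes that do not encode plasma proteins were read the same way. Hepatocyte enzymes and transporters were higher in mTEChi for 9 of 16 (median 1.21; 10 of 21 without the filter), such as Bhmt of methionine metabolism (2.58), the cytochrome P450 Cyp3a11 (2.51), Gnmt (2.5), tryptophan dioxygenase Tdo2 (2.47), and Arg1 (2.41) and Cps1 (2.35) of the urea cycle. Of 8 liver transcription factors tested, 2 were higher, Foxa1 (3.98 ± 0.17) and Foxa2 (1.04 ± 0.1), and 2 of 16 without the filter, where 11.7% of all genes were higher. Of 14 genes of acute-phase signalling, 2 were lower in mTEChi and the other 12 did not pass, the 2 being the shared receptor chain Il6st (-2.02 ± 0.12) and Il6 itself (-1.66).

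**Figure D4:**
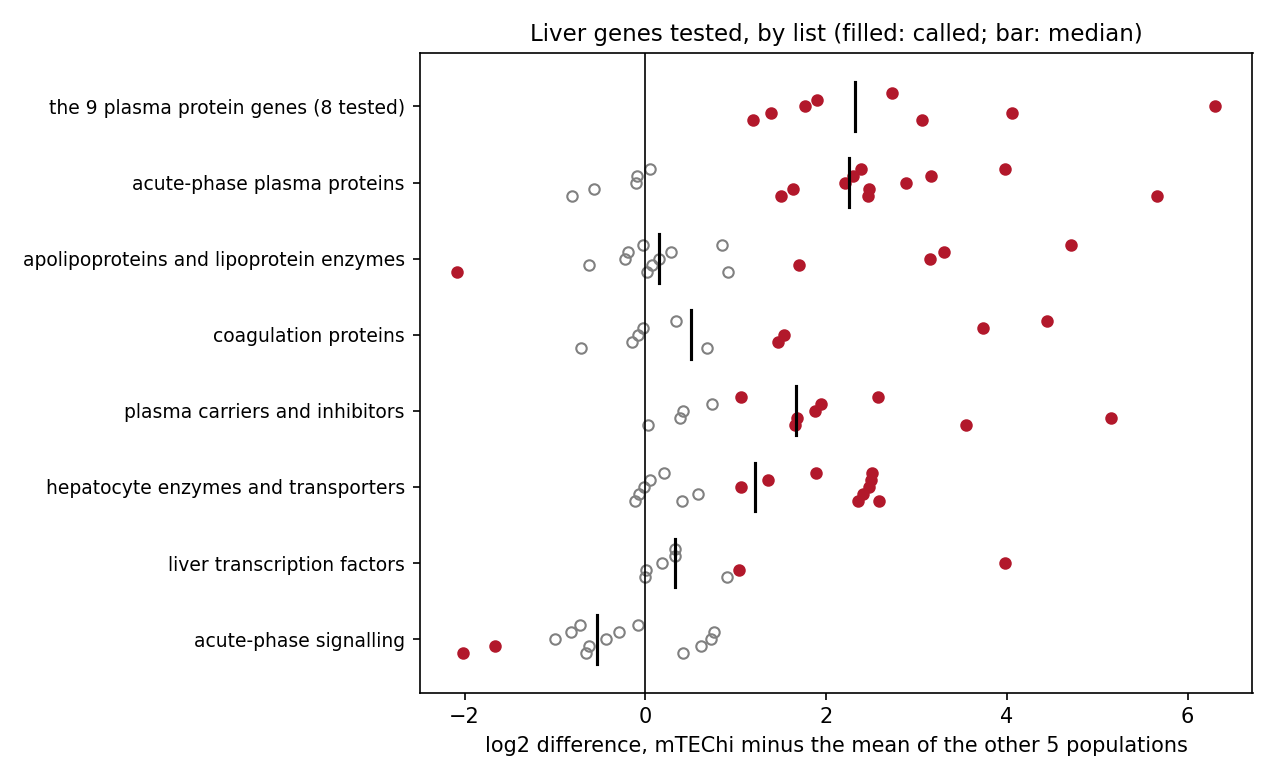
Log2 difference between mTEChi and the mean of the other 5 populations (horizontal axis) for each tested gene of the 8 gene lists (vertical axis), with filled points for genes called and a bar at each list's median. The median is 2.26 for acute-phase proteins, 0.15 for apolipoproteins and lipoprotein enzymes and -0.53 for acute-phase signalling.

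In mTEClo, where Crp was highest, 3 of 16 acute-phase genes were higher than in the other 5 populations: lipocalin Lcn2 (2.71 ± 0.2), the lipopolysaccharide-binding protein Lbp (2.6 ± 0.14) and the serpin Serpina3n (1.91 ± 0.19). Of 14 acute-phase signalling genes, 5 were higher there and 3 lower, where 9.42 and 5.37% of genes tested were. The 5 were the receptor chains Osmr (3.74 ± 0.17), Lifr (3.09 ± 0.29), Il6st (1.15) and Il1r1 (1.00), and the feedback inhibitor Socs3 (1.37), and the 3 were the cytokines Il6 (-2.63), Il1b (-1.51) and Osm (-1.16). Against mTEClo, mTEChi had 10 of 16 acute-phase genes higher and 2 lower, Serpina3n (-2.26) and Lbp (-2.25). Like Crp, these 2 were therefore lower in mTEChi than in mTEClo. Of the 14 acute-phase signalling genes, 4 were lower, Lifr (-2.82), Il6st (-2.64), Osmr (-2.48) and Socs3 (-1.83), and 1 was higher, the cytokine Tnf (1.08), where 7.81% of genes tested were lower and 11.8% higher.

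With age, calls in the lists went both ways. From 1 to 6 months, Saa3 fell by 3.28 in mTEClo (± 0.48, adjusted p = 9.83e-05) and by 3.27 in cTEC (adjusted p = 0.000149), while in mTEChi it changed by -0.1 (adjusted p = 0.924). Lcn2 rose in mTEClo by 3 ± 0.45 (adjusted p = 0.000124), so acute-phase genes did not move one way. Apoc2 fell in cTEC (-1.48, adjusted p = 0.00995) and mTEClo (-1.23, adjusted p = 0.0318), Apoc3 in cTEC (-1.26, adjusted p = 0.0281) and Serpinc1 in mTEClo (-1.37, adjusted p = 0.000666). In mTEChi, Fgg rose by 0.96 (adjusted p = 0.0274; 6.17% of genes higher), the 1 call among the 53 plasma protein genes there. Over these 53 genes, 3 fell and 1 rose in mTEClo (3.87 and 2.55% of genes tested), and 3 fell and 1 rose in cTEC (3.74 and 2.71%), shares near those of all genes. From 1 to 3 months in cTEC, 4 of the 53 were higher and 2 lower, where 1.52% of genes tested were higher and 3.88% lower. The acute-phase genes Serpina3n (2.29 ± 0.43, adjusted p = 0.00203), Lcn2 (1.67, 0.0288) and Lbp (1.08, 0.0415) and the fibrinogen chain Fgg (0.94, 0.0433) rose, while Saa3 (-2.38, 0.00393) and Apoc2 (-1.31, 0.0251) fell. Over the same step 4 of 6 cTEC markers and 4 of 10 thymocyte markers were lower in cTEC, and their part in these changes was not tested.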

How the data were processed

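The 36 sorted samples were each hybridised to 1 Affymetrix mouse array with 45101 probe sets. The deposited values are log2 signals normalized by the authors with the Gene Expression Commons platform, per the series' design text. The submitters' processing notes name GCRMA, with neither its version nor its role given in the sources used here. No label states the log base, which was inferred from the span of the signals. Background handling at low signal is therefore unknown, and differences of dim probe sets may be understated.

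Probe sets were named from the platform annotation. Of 45101, 34945 had 1 symbol, 932 several, 9160 none, and 64 were controls, and only the first kind was used. Of several for a gene, the one with the highest mean stood for it. Genes above the pooled median (5.66) in at least 2 arrays were tested with limma 3.58.1 in R 4.3.3 (18 group means, lmFit and eBayes with an intensity trend, 18 residual degrees of freedom), with Benjamini-Hochberg adjustment over 14495 genes. Population differences needed an adjusted p under 0.05 and at least 2-fold to be called, and age changes or differences between them an adjusted p under 0.05. Errors after ± are standard errors unless named SD. No array values were normalized again. Arrays carry no read depth, and their number, 2 per group, limits the precision. The 2 arrays of a group correlated at 0.949 to 0.994, and no columns were identical.

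The members and the lists were chosen with earlier results of these data known. The text names all members, from each liver list up to 6 called genes with the largest difference in the mTEChi and mTEClo comparisons and up to 3 elsewhere, and for likeness the 3 genes closest to each member. Each probe set of a member was also fitted alone, an alternative chosen after seeing the data. Promoters were searched with Python 3.11.15 and aligned with Biopython 1.88, and figures drawn with matplotlib 3.10.9. The fits were tested on simulated data of 14495 genes: of 100 genes changed by 2 on the log2 scale between mTEChi and the other populations, 100% were called with 0 others, and of 100 changed by -2 from 1 to 6 months in mTEChi, 96% were called with 6 others. Alternatives changed the signal filter, the probe set of a gene, the scaling, the variance model, the samples fitted, the block and the covariates, and left out each array in turn. Whether arrays with the same age and number pair across populations was checked on the residuals.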

Additional observations from a re-analysis of the deposited data

Results flagged for a closer look

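Among 54 groups of 6 arrays, a gene in a population over 3 ages, 8 held an array set far from the other 5 by Dixon's test at the 95% level, where chance gives about 1 in 20 groups. The arrays of a group differ in age, so such a gap need not be an error of an array. In cTEC, replicate 2 of 1 month stood apart in the acute-phase gene Crp (6.42, nearest array 5.1) and in the lipoprotein gene Apoa1 (6.12, nearest 5.16). In mTEClo at 1 month, Apoa1 stood apart in replicate 2 (7.35, nearest 6.1) and Alb in replicate 1 (5.26, nearest 4.58). In mTEChi, Alb was high in replicate 2 of 1 month (6.98, nearest 6.37) and Crp low in replicate 2 of 6 months (7.38, nearest 8.62). Saa2 stood apart in replicate 1 of 3 months in cTEC (5.1, nearest 4.46) and in Sirpa- DC (5.08, nearest 4.66), all below the pooled median. In 5 of the 8 groups the array came from 1 month, and it was the highest of its group in all but that of Crp in mTEChi.

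The change from 1 to 6 months differed between mTEChi and mTEClo for Saa1 by 3.07 and for Apoa1 by 1.85 on the log2 scale, and for Saa1 it differed between populations as a whole (F = 5.7). For Saa1 the fall was in mTEClo and cTEC while mTEChi did not pass, and for Apoa1 neither population passed alone in the fit over genes, while 3 of its 4 probe sets fell in mTEClo in the fit of single probe sets.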

How the results depend on the processing

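Of 735 values recomputed under alternatives other than leaving out 1 array, 689 were kept, as were 2043 of 2124 without 1 array. For a difference, kept means the same direction and the same side of the threshold. For a count of calls some shift was allowed, such as 7 to 14 age calls in place of 10 without 1 array. The mTEChi differences of all 8 genes stayed called throughout, wherever the gene was tested: the count was 7 with the stricter filter, which Saa2 misses, and 9 with the most variable probe set of each gene, which adds Apob. Saa1 kept its fall from 1 to 6 months in mTEClo and cTEC in all of them.

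The count in cTEC against the others was 3 in place of 1 without the 6 fibroblast arrays, and 1 to 2 without 1 array (2 without cTEC replicate 2 of 1 month). The age calls were 10, 15 with the most variable probe set, 6 with the thymocyte covariate, 5 with the 3′ to 5′ covariate, and 7 to 14 without 1 array. The calls of an age difference between mTEChi and mTEClo were 2, and 1 with quantile normalization, with array weights or with only the groups compared, Apoa1 being lost in each, 3 with no filter, and 1 to 2 without 1 array. With the most variable probe set of each gene, Apoa1 was lost as well (1.83) and Ttr was called (2.88, limma adjusted p = 0.0206). The F-test count was 1 to 2 without 1 array (2 without mTEClo replicate 1 of 1 month). The steps of Saa1 in mTEClo lost their call with only the groups compared (-1.67 and -1.8). The first also did with the mean of probe sets (-1.18) and the thymocyte covariate (-1.62), and the second with the 3′ to 5′ covariate (-1.34). The thymocyte covariate also ended the call of Saa1 from 1 to 3 months in cTEC (-2.11) and that of Alb in cTEC (-0.89). Saa2 in mTEChi against mTEClo was called without any of 6 arrays (1 to 1.04), and Ttr in cTEC against the medullary mean without any of 3 (-1.1 to -1.01). Ttr in that comparison was also called with the mean of probe sets (-2.35) and with the most variable one (-2.69).

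Sign changes were confined to values that did not pass. In mTEClo against the others, Apoa1 (-0.01) became 0 with the mean of probe sets, 0.09 with the most variable one, 0.26 with the thymocyte covariate and -0.22 to 0.19 without 1 array; Saa2 (-0.01) became 0.02 by quantile normalization, 0 with equal medians and -0.05 to 0.04 without 1 array; and Saa1 (0.47) became -0.06 without fibroblasts. Without 1 array, the age difference ran from -1.08 to 0.54 for Crp, -0.12 to 0.59 for Alb and -0.03 to 0.8 for Ttr. The causes were not tested.

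Counts over all genes also moved: mTEClo from 1 to 6 months had 930 calls, 382 with the 3′ to 5′ covariate and 2783 with array weights, mTEChi 1379 and 119 with array weights, and cTEC 935, 229 with only the groups compared and 1557 with the most variable probe set. Fibroblasts from 1 to 6 months had 5250 and, with only the groups compared, 0 by limma (4345 at an unadjusted p under 0.05), and fibroblasts against the others 2661 and 1322 with the thymocyte covariate. The age differences between mTEChi and mTEClo numbered 951, 408 with only the groups compared, and 311 to 2259 without 1 array.

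For same-numbered arrays of an age, residual correlations of 45 pairs of populations ran from -0.0676 to 0.418, with 17 above 0.1. Their median was 0.0862, and the consensus correlation within age and replicate number was 0.056. That is short of a correlation above 0.1 in every pair, so pairing was not shown. A bar this strict cannot exclude pairing either, and the replicate block is an alternative only. With the block, 8 genes were called in mTEChi, 11 age calls were made and 2 age differences, and no call of a member was lost.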
